A study of Homo sapiens with 8 samples.

Results

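The 36 genes described here encode the machinery that brings new secretory and membrane proteins into the endoplasmic reticulum (ER), folds and glycosylates them there and removes those that fail, together with XBP1 and other targets of the unfolded protein response. They were taken by symbol from a list drawn up with earlier results of these data known, and all 36 were found among the 14535 genes used and passed the filter that left 13473 tested. Messenger RNA had been sequenced from Calu-6 cells, a human line that the labels give as non-small cell lung cancer with a wild-type genotype. All cultures grew in the same serum-containing medium in 6-well plates and were given either 1 µM KI696, an inhibitor of the interaction between the adaptor protein KEAP1 and the transcription factor NRF2, or the vehicle DMSO. There were 4 groups of 2 libraries, namely DMSO and KI696 at 24 h and DMSO and KI696 at 48 h, called A and B within a group by column order. Whether both libraries of a group were grown apart is not stated in the labels, so p-values measure only the spread between these libraries, which may be technical. The comparisons asked how the transcripts of the ER machinery changed with KI696 at each time.

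Proteins bound for secretion enter the ER through the SEC61 channel, receive sugar chains from oligosaccharyltransferase and fold with the help of chaperones, lectins and enzymes that make and exchange disulfide bonds. When unfolded proteins accumulate, the sensors IRE1, PERK and ATF6 start the unfolded protein response, in which spliced XBP1 and cleaved ATF6 raise transcription of many of the genes described here, while PERK slows translation and favours synthesis of ATF4. Proteins that cannot fold are sent back to the cytosol and degraded by the proteasome, a route built around the ubiquitin ligase SYVN1 and its partner SEL1L. Gene-level values hold no information on XBP1 splicing, on cleavage of ATF6 or on protein amounts.

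The libraries held 6974235 to 14170211 reads in the table, and 3 reads corresponded to 0.213 to 0.428 CPM, which covers counting error only. That range leaves out the small count added by the authors, which put genes without reads at 0.242 CPM. CPM is here the antilog of the deposited log2 values, that is, read counts per gene scaled to library size. Exposure to KI696 was visible in NQO1, a classical NRF2 target, which stood at 521 and 486 CPM in DMSO and at 1824 and 1852 CPM in KI696 at 24 h, and at 320.1 and 244 CPM against 1939 and 2273 CPM at 48 h. The 2 libraries of a group differed by more than counting error, which gives a chi-square per degree of freedom near 1: it was 1.69 and 1.65 in DMSO and KI696 at 24 h and 4.82 and 3.64 at 48 h. Of 13 lung lineage markers 8 were among the genes analysed here. Their mean log2 level was 2.23 and 2.48 in DMSO 24 h A and B and −0.22 and 0.11 in KI696 24 h A and B, then 1.75 and 0.19 in DMSO 48 h A and B and 2.13 and −0.46 in KI696 48 h A and B. Epithelial markers, with all 16 present, were lower with KI696 at 24 h in 16 of 16, and their mean log2 level ranged from 5.78 to 6.08 in DMSO 24 h, from 3.18 to 3.54 in KI696 24 h, from 4.62 to 5.72 in DMSO 48 h and from 3.65 to 5.30 in KI696 48 h. Of 7 markers of fibroblasts and endothelium 6 were present, and they summed to 179 and 169 CPM in DMSO 24 h, 64.3 and 64.7 CPM in KI696 24 h, 216 and 204 CPM in DMSO 48 h and 95.1 and 74.3 CPM in KI696 48 h. They too were lower with KI696. Of 6 leukocyte markers 4 were among the genes analysed here, without PTPRC and CD3E, and summed to 48.4 and 49.0 CPM in DMSO 24 h, 38.0 and 40.2 CPM in KI696 24 h, 43.2 and 46.5 CPM in DMSO 48 h and 30.0 and 31.3 CPM in KI696 48 h. The 2 of 4 markers of plasma and secretory cells that were present summed to 95.5 and 103 CPM, 61.1 and 69.6 CPM, 71.4 and 46.4 CPM, and 96.9 and 68.0 CPM in the same order of groups. The part of these markers in the results on the ER genes was not tested, apart from a fit with the lung lineage mean as a covariate, whose effect is given beside the counts.

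Per length of annotated exons, the DMSO 24 h levels of the 36 genes spanned 5.03 CPM per kb for DNAJB9, a stress-induced cochaperone, to 373 CPM per kb for CALR, the lectin chaperone calreticulin. HSPA5 (BiP), the main ER chaperone of the HSP70 family, and HSP90B1 (GRP94), its HSP90 counterpart, came next at 172 and 171 CPM per kb, followed by CANX (calnexin) at 161 CPM per kb. Of the degradation genes, HERPUD1 stood at 18.6, EDEM1 at 12.6, SEL1L at 11.5 and SYVN1 at 11.1 CPM per kb. All were below every oligosaccharyltransferase subunit among the 36 genes, the lowest of which was STT3A at 24.5 CPM per kb. Exon length was taken over all annotated transcripts of a gene, so these levels are approximate where long rare transcripts exist.

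**Figure D1:**
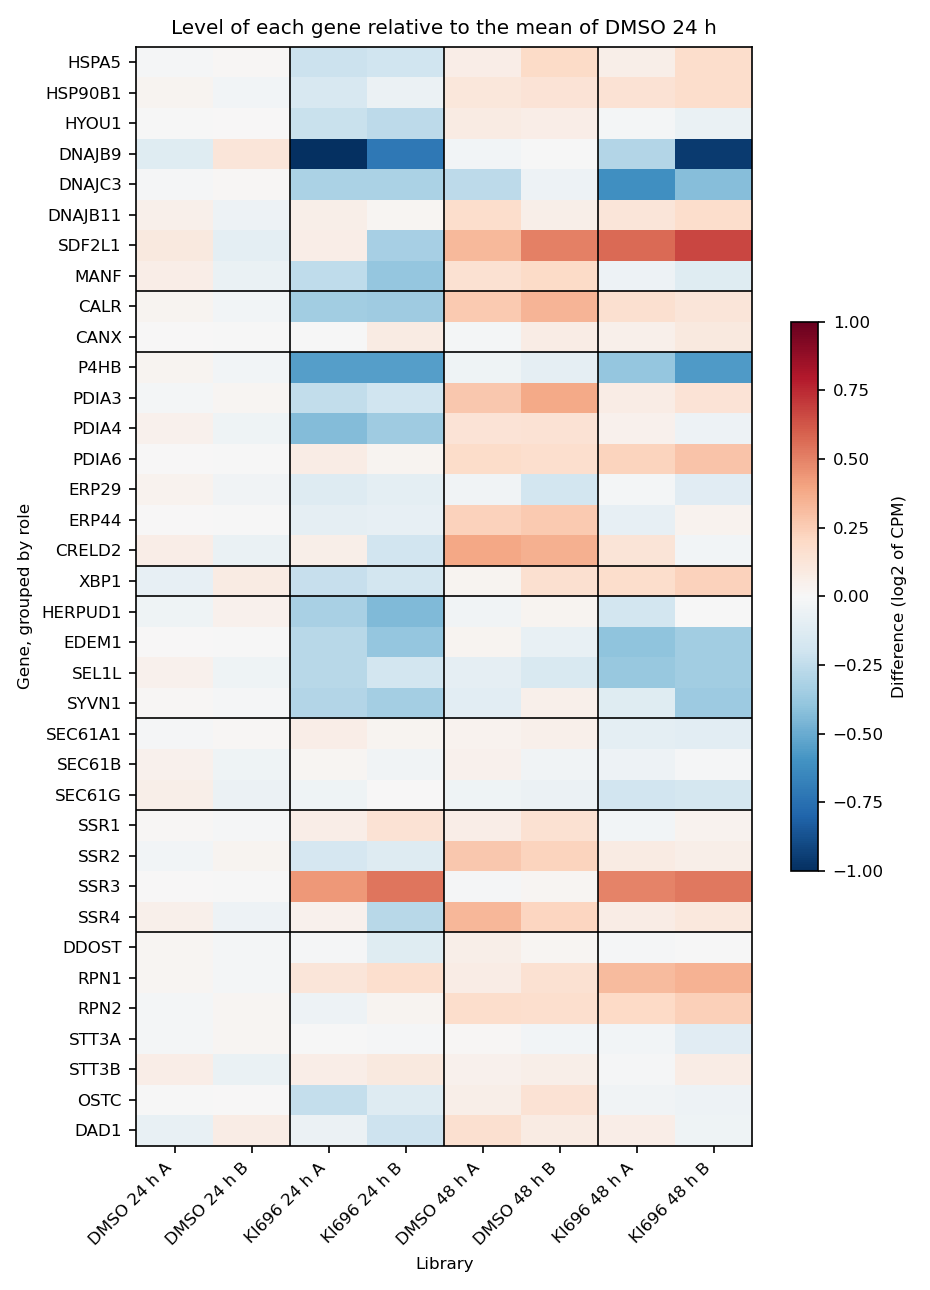
Level of each of the 36 genes (rows, grouped by role) in each of the 8 libraries (columns), as the log2 difference in CPM from the mean of the 2 DMSO 24 h libraries, with the colour scale ending at −1 and 1. The P4HB, HERPUD1 and EDEM1 rows are blue in both KI696 24 h libraries, the SSR3 row is red in all 4 KI696 libraries, and DNAJB9 reaches the deepest blue.

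Promoters of the ER chaperones are the textbook place of the ER stress element, a paired site read by ATF6 and XBP1 together with the factor NF-Y. Windows from 250 bases before to 50 bases after the annotated start were available for 33 of the 36 genes in RefSeq (GRCh38.p14), 43 windows in all, and were searched on both strands. The ER stress element, searched as CCAAT and CCACG with any 9 bases between them, was present for 7 of the 33 genes (21.2%), namely HSPA5, HSP90B1, CALR, CANX, PDIA6, CRELD2 and XBP1, against 0.0916% of all 27305 genes in the promoter table. The shorter element II, searched as ATTGG and CCACG with any 1 base between them, was present for HYOU1, HERPUD1 and SDF2L1 (9.09%), against 0.0696% of all genes. The unfolded protein response element TGACGTGG occurred for HYOU1, SSR3 and SSR4, against 0.927% of all genes. The antioxidant response element, the site of NRF2, searched as TGAC and GC with any 3 bases between them, occurred for 7 of the 33 genes (21.2%), against 16.1% of all genes. In SSR4, and before 1 of the 3 listed starts of SSR3, the matches to the last 2 motifs overlapped, so that the same bases were counted under both. Before another start of SSR3 a separate antioxidant response element match lay 34 to 42 bases upstream. No unfolded protein response element matched there. In HYOU1 the unfolded protein response element match shared bases with an element II match. These are matches of letters, not measured binding sites. The first 5 windows below hold an ER stress element or element II in genes whose levels are described further on, and the last is the window of SSR3, the gene with the largest increase of the 36. Capitals mark the motif, and every sequence is written 5′ to 3′ along the gene's strand.
HSPA5, ER stress element, chr9:125241379-125241421, minus strand: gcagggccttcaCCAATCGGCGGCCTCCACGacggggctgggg
CALR, ER stress element on the opposite strand, chr19:12938372-12938414, plus strand: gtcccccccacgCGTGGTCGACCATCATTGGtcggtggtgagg
HYOU1, element II on the opposite strand, chr11:119057262-119057296, minus strand: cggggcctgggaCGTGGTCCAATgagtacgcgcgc
HERPUD1, element II, chr16:56932013-56932047, plus strand: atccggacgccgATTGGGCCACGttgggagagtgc
SDF2L1, element II on the opposite strand, chr22:21642102-21642136, plus strand: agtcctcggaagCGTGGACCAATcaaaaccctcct
SSR3, unfolded protein response element on the opposite strand, chr3:156554151-156554174, minus strand: gataacagCCACGTCAgcaaggaa
The HSPA5 element lay 48 to 66 bases before its start, that of CALR 207 to 225, that of HERPUD1 107 to 117 and that of SDF2L1 178 to 188. The SSR3 match lay 34 to 41 bases before 1 of its 3 listed starts. The 10 genes with either ER stress element had a median 24 h difference of −0.17 on the log2 scale with 5 called lower, and the 23 matched genes without one had −0.12 with 10 called lower. At 48 h the medians were 0.01 with 2 called lower and −0.15 with 9 called lower, in the same order. Of all tested genes 30.3% were lower at 24 h and 25.9% at 48 h, with medians of −0.12 and −0.08. That split by element was made after the values had been seen and carries no test.

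**Figure D2:**
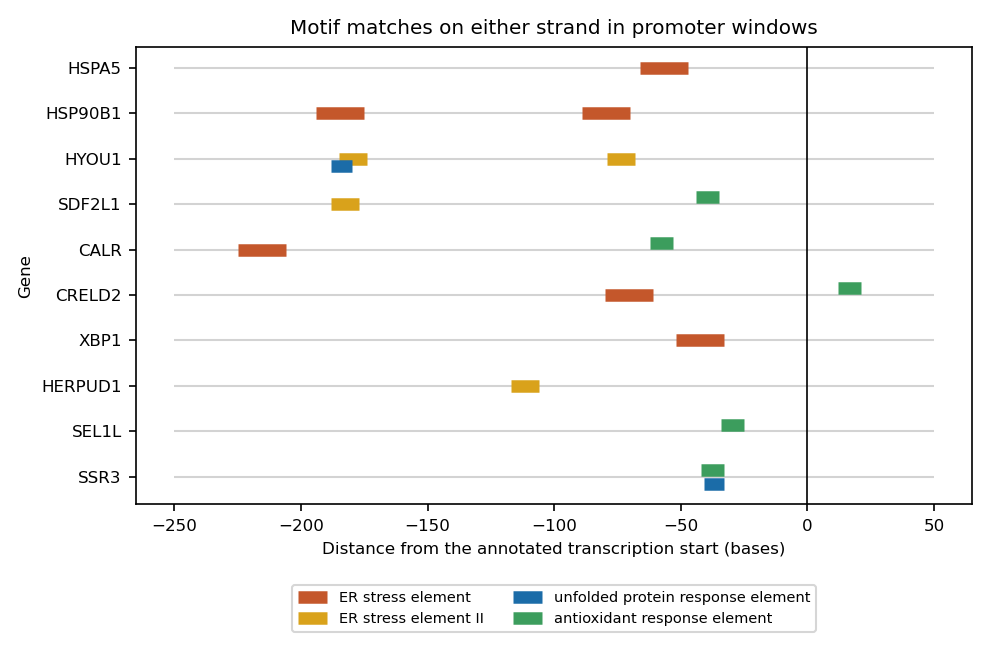
Positions of motif matches in the promoter windows of 10 of the genes, as distance in bases from the annotated start (x axis), with 1 row per gene and 1 colour per motif. HSPA5, HSP90B1, CALR, CRELD2 and XBP1 carry the ER stress element and HYOU1, SDF2L1 and HERPUD1 element II. In SSR3 the antioxidant and unfolded protein response elements overlap before 1 of its starts. A separate SSR3 antioxidant match, before another start, lies at the same distance and is drawn at the same place.

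At 24 h, of the 36 genes, 16 were called lower (44.4%), against 30.3% of all tested genes, and 2 were called higher (5.56%), against 17.7% of all tested genes, at an adjusted p below 0.05 in limma. The share called in either direction was 50%. Both KI696 libraries lay below both DMSO libraries for 19 of the 36, against 47.5% of all tested genes, and above them for 6, against 29.3%. The median difference of the 36 was −0.13 on the log2 scale, beside −0.12 for all tested genes, so the list's middle lay at the background. By role, 5 of 8 chaperones and cochaperones, 1 of 2 lectin chaperones, 3 of 7 disulfide isomerases and related genes, XBP1 and 4 of 4 degradation genes were lower. Of the 3 SEC61 subunits none was called, of the 4 translocon-associated subunits 1 was higher and 1 lower, and of the 7 oligosaccharyltransferase subunits 1 was higher and 1 lower. The 95% intervals of the 18 genes not called lay between −0.45 and 0.23.

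The split between higher and lower calls changed with the scaling of the libraries. The median of all genes at 24 h was −0.12 with the deposited scaling, −0.02 with TMM factors, −0.03 with median-ratio factors and 0.04 with quantile scaling. The members' median was −0.13, −0.02, −0.03 and −0.14 in that order. With TMM 5 of the 36 were higher and 7 lower, with median-ratio factors 6 and 9, and with quantile scaling 1 and 17. Of all tested genes 24.3% were higher and 23.2% lower with TMM. The shares were 24.5% and 23.8% with median-ratio factors, and 22.8% and 21.7% with quantile scaling. Called lower under all 4 scalings at 24 h were DNAJB9, MANF, CALR, P4HB, PDIA4, HERPUD1 and EDEM1, and called higher under all 4 was SSR3. How many of all tested genes were called under all 4 was not computed. With the lung lineage mean as a covariate 9 were lower and 1 was higher, while 19.3% of all genes were lower and 11.1% higher. At 24 h that mean was 2.23 and 2.48 in DMSO and −0.22 and 0.11 in KI696. It thus nearly follows the treatment, and this fit cannot fully tell the 2 apart at 24 h.

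**Figure D3:**
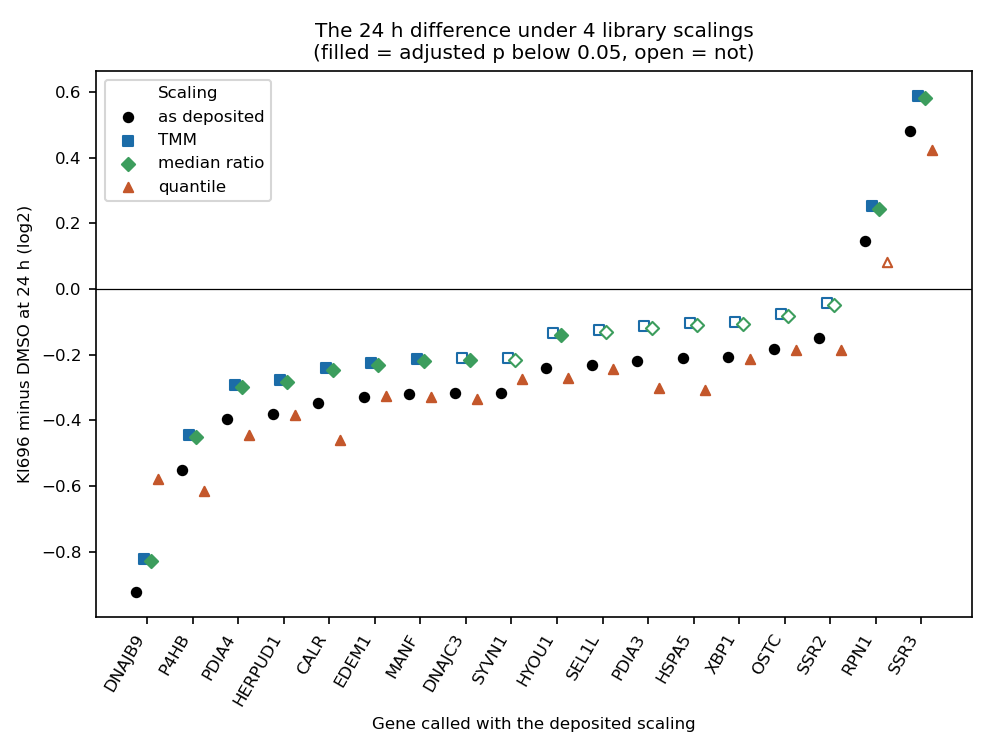
Difference between KI696 and DMSO at 24 h (y axis, log2) for the 18 genes called with the deposited scaling (x axis), under 4 scalings of the libraries, with filled symbols for an adjusted p below 0.05 and open symbols otherwise. The 7 genes at the left, from DNAJB9 to MANF, and SSR3 at the right stay filled under every scaling, while HSPA5, XBP1, PDIA3, SEL1L, SYVN1, OSTC and SSR2 turn open with TMM and median-ratio factors, DNAJC3 and HYOU1 with TMM alone, and RPN1 with quantile scaling.

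At 48 h the genes called lower were 3 chaperones or cochaperones, CALR, 4 disulfide isomerases or related genes, 2 of the 4 degradation genes, SEC61A1 and SSR2, and XBP1 was not called. Of the 36 genes, 12 were lower (33.3%), against 25.9% of all tested genes, and 2 were higher (5.56%), against 21.9%. Both KI696 libraries lay below both DMSO libraries for 21 of the 36, against 40.3% of all tested genes, and above them for 7, against 32%. The median difference was −0.11, beside −0.08 for all tested genes, and the 95% intervals of the 22 genes not called lay between −0.42 and 0.51. Called lower under all 4 scalings at 48 h were DNAJC3, MANF, P4HB, ERP44 and EDEM1, and called higher were SSR3 and RPN1. At both times 9 genes were lower and 2 higher, 7 were lower at 24 h alone, 3 at 48 h alone, 15 were called at neither time, and none was called in opposite directions. MANF, P4HB and EDEM1 were lower, and SSR3 was higher, at both times under all 4 scalings. The shares of all tested genes called at both times, or under all 4 scalings, were not computed. Whether such repeated calls are more frequent among the 36 genes is therefore not known.

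**Figure D4:**
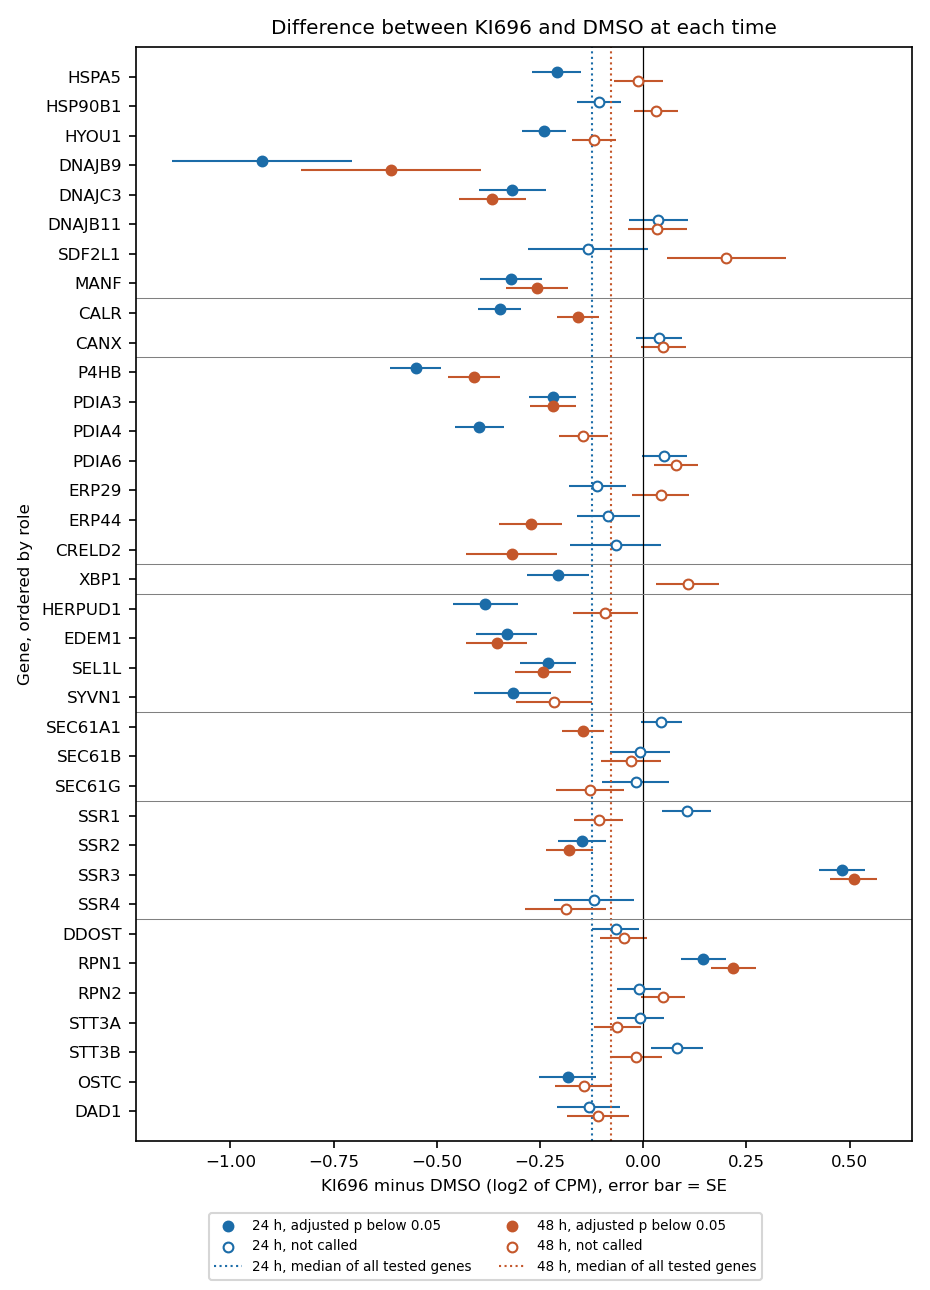
Difference between KI696 and DMSO (x axis, log2 of CPM, error bars are SE) for each of the 36 genes at 24 h (blue) and 48 h (orange), with filled points for an adjusted p below 0.05 and dotted lines at the median of all tested genes. The degradation genes all lie left of both lines at 24 h, the oligosaccharyltransferase subunits cluster between −0.18 and 0.22, and SSR3 stands alone at the right.

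Among the chaperones and cochaperones DNAJB9, DNAJC3 and MANF fell at both times, HSPA5 and HYOU1 fell at 24 h alone, and HSP90B1, DNAJB11 and SDF2L1 were not called. HSPA5 (chr9:125234853-125241330) stood at 667 and 677 CPM in DMSO 24 h and at 578 and 584 CPM in KI696 24 h, then at 703 and 769 CPM in DMSO 48 h and 699.7 and 761 CPM in KI696 48 h. Its groups were separate at 24 h and overlapped at 48 h. The differences were −0.21 ± 0.06 (SE, adjusted p = 0.0105) and −0.01 ± 0.06 (adjusted p = 0.891) on the log2 scale. The 24 h call was lost with TMM (−0.10, adjusted p = 0.224), with median-ratio factors (−0.11, adjusted p = 0.144) and without the variance trend (adjusted p = 0.0781). It was also lost without DMSO 24 h B, KI696 24 h A or KI696 24 h B, where the adjusted p reached 0.0714. At 48 h HSPA5 was called lower with quantile scaling (−0.18, adjusted p = 0.00693). HSP90B1 (chr12:103930107-103953645) had 821 and 787 CPM in DMSO 24 h, 721 and 772 CPM in KI696 24 h, 872 and 885 CPM in DMSO 48 h and 887 and 907 CPM in KI696 48 h. It passed at neither time with the deposited scaling, with −0.11 ± 0.05 and 0.03 ± 0.05, although both KI696 libraries lay below both DMSO libraries at 24 h and above them at 48 h. HSP90B1 was called lower at 24 h with quantile scaling (−0.24, adjusted p = 0.00203) and without both libraries A of 48 h (−0.11, adjusted p = 0.0487).

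DNAJB9 (ERdj4, chr7:108569568-108574850), a cochaperone of HSPA5 that is induced through IRE1 and XBP1, had the largest decrease of the 36 genes at both times. Its levels were 13.1 and 15.5 CPM in DMSO 24 h, 6.49 and 8.65 CPM in KI696 24 h, 13.96 and 14.2 CPM in DMSO 48 h and 11.6 and 7.31 CPM in KI696 48 h. All KI696 libraries lay below all DMSO libraries, and the 2 KI696 48 h libraries stood far apart, with a difference of 0.67 on the log2 scale that was the widest of the 36 genes in that group. It fell by 47.3% at 24 h (−0.92 ± 0.22, adjusted p = 0.0037) and fell by 34.5% at 48 h (−0.61 ± 0.22, adjusted p = 0.0341). Without KI696 24 h A the 24 h value was −0.72 with an adjusted p of 0.0591, and the 24 h call was also lost with the lineage covariate (−0.43). The 48 h call was lost without DMSO 48 h A, DMSO 48 h B or KI696 48 h B, and without the last of these the value was −0.28. It was also lost with quantile scaling (−0.42, adjusted p = 0.116), without the filter on low values (adjusted p = 0.0626), without the variance trend (adjusted p = 0.101) and in the fit of that time alone (adjusted p = 0.0668).

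DNAJC3 (p58IPK), a cochaperone of HSPA5 that also restrains PERK, fell at both times. It had 141 and 143 CPM in DMSO 24 h, 114.4 and 114.1 CPM in KI696 24 h, 119 and 137 CPM in DMSO 48 h and 92.9 and 106 CPM in KI696 48 h. The groups did not overlap at either time, and the differences were −0.32 ± 0.08 (adjusted p = 0.00567) and −0.37 ± 0.08 (adjusted p = 0.00213). DNAJC3 lost its 24 h call with TMM (−0.21, adjusted p = 0.0557) and without the variance trend (adjusted p = 0.0521). MANF, a secreted stress-induced cofactor of HSPA5, fell from 101 and 92.8 CPM to 81.6 and 74.1 CPM at 24 h (−0.32 ± 0.07, adjusted p = 0.00324) and from 108 and 111 CPM to 93.8 and 89.2 CPM at 48 h (−0.26 ± 0.07, adjusted p = 0.0115). Its 24 h call was lost without DMSO 24 h A (adjusted p = 0.0507) and its 48 h call without KI696 48 h B (adjusted p = 0.0725) or the variance trend (adjusted p = 0.0537). HYOU1, the large HSP70-type exchange factor of HSPA5, fell at 24 h (−0.24 ± 0.05, adjusted p = 0.00249) and missed the threshold at 48 h (−0.12 ± 0.05, adjusted p = 0.0813). HYOU1 lost its 24 h call with TMM (−0.13, adjusted p = 0.0750) and with the lineage covariate (−0.20, adjusted p = 0.0694). SDF2L1, a stress-induced partner of the DNAJB11 complex, had 19.3 and 16.8 CPM in DMSO 24 h, 18.9 and 14.4 CPM in KI696 24 h, 22.6 and 25.6 CPM in DMSO 48 h and 26.7 and 28.6 CPM in KI696 48 h. Its groups overlapped at 24 h, and neither −0.13 ± 0.145 nor 0.20 ± 0.145 passed. DNAJB11 (ERdj3) itself overlapped between groups at both times, with 0.04 ± 0.07 and 0.03 ± 0.07.

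Of the lectin chaperones, which hold newly glycosylated proteins while they fold, CALR fell at both times and CANX was not called. CALR (chr19:12938578-12944489), the soluble lectin, had 1033 and 991 CPM in DMSO 24 h and 797 and 793 CPM in KI696 24 h, and 1214 and 1279 CPM in DMSO 48 h against 1131 and 1103 CPM in KI696 48 h. The KI696 libraries were the lower ones at both times without overlap. CALR fell by 21.4% at 24 h (−0.35 ± 0.05, adjusted p = 0.000128) and fell by 10.4% at 48 h (−0.16 ± 0.05, adjusted p = 0.0225). The 48 h call was lost with TMM (−0.10) and median-ratio factors (−0.11), without the variance trend (adjusted p = 0.101), in the fit of that time alone (adjusted p = 0.0658). It was lost too without DMSO 48 h B or KI696 48 h B, where the adjusted p reached 0.123. CANX (calnexin), the membrane-bound lectin, lay at 1003 to 1063 CPM in KI696 24 h against 1002 to 1010 CPM in DMSO 24 h, with 0.04 ± 0.05 at 24 h and 0.05 ± 0.05 at 48 h, neither of which passed.

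Of the disulfide isomerases, which form and rearrange disulfide bonds, P4HB had the smallest p of the 36 genes at 24 h. P4HB (PDI, chr17:81843159-81860694), the founding member of the family and a subunit of collagen prolyl 4-hydroxylase, stood at 493 and 476 CPM in DMSO 24 h and at 331 and 330.4 CPM in KI696 24 h. At 48 h it had 469.8 and 456 CPM in DMSO and 371 and 327 CPM in KI696. The groups were clearly apart at both times, and KI696 48 h A was the highest treated library. P4HB fell by 31.7% at 24 h (−0.55 ± 0.06, adjusted p = 1.41e-05) and fell by 24.7% at 48 h (−0.41 ± 0.06, adjusted p = 0.000123), which was −0.43 and −0.33 relative to the median of all genes. Both calls were kept in every fit that left out 1 library.

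PDIA4 (ERp72) fell at 24 h, from 296 and 277 CPM to 212 and 223 CPM (−0.40 ± 0.06, adjusted p = 0.000133). At 48 h its 316 and 317 CPM in DMSO and 296 and 277 CPM in KI696 did not overlap either, but −0.15 ± 0.06 missed the threshold (adjusted p = 0.0585) and passed without KI696 48 h A (adjusted p = 0.0401). It also passed with quantile scaling (−0.18, adjusted p = 0.0265), voom weights (adjusted p = 0.0447), the lineage covariate (adjusted p = 0.0441) and without both libraries A of 48 h (−0.20, adjusted p = 0.0296). PDIA3 (ERp57), the isomerase that works with CALR and CANX, had 425 and 435 CPM in DMSO 24 h, 363 and 376 CPM in KI696 24 h, 518 and 558 CPM in DMSO 48 h and 452 and 472 CPM in KI696 48 h. Its KI696 libraries were lower than the DMSO libraries of the same time without overlap. The difference was −0.22 ± 0.06 on the log2 scale at 24 h (adjusted p = 0.00568) and again at 48 h (adjusted p = 0.0054), and both calls were lost with TMM (−0.11 and −0.16) and without the variance trend (adjusted p = 0.0519 and 0.0510). PDIA3 lost its 24 h call also with median-ratio factors (−0.12, adjusted p = 0.0922) and without DMSO 24 h B or KI696 24 h A, where the adjusted p reached 0.0545. ERP44, which retains client proteins by mixed disulfides, and CRELD2, a stress-induced secreted protein with isomerase-like motifs, were called at 48 h alone, with −0.27 ± 0.08 (adjusted p = 0.00913) and −0.32 ± 0.11 (adjusted p = 0.028). ERP44 lost its call without KI696 48 h A (adjusted p = 0.0813) and without both libraries A of 48 h (adjusted p = 0.0847). CRELD2 lost its call without DMSO 48 h A, DMSO 48 h B or KI696 48 h B (adjusted p up to 0.170). It also lost it with TMM (−0.26, adjusted p = 0.0660) and median-ratio factors (−0.27, adjusted p = 0.0576), and without the variance trend (adjusted p = 0.0673). PDIA6 (P5), an isomerase known to restrain IRE1, had 0.05 ± 0.05 and 0.08 ± 0.05 and ERP29, a family member without an active-site pair of cysteines, −0.11 ± 0.07 and 0.04 ± 0.07, none of which passed with the deposited scaling. PDIA6 was called higher at 24 h with median-ratio factors (0.15, adjusted p = 0.0380).

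**Figure D5:**
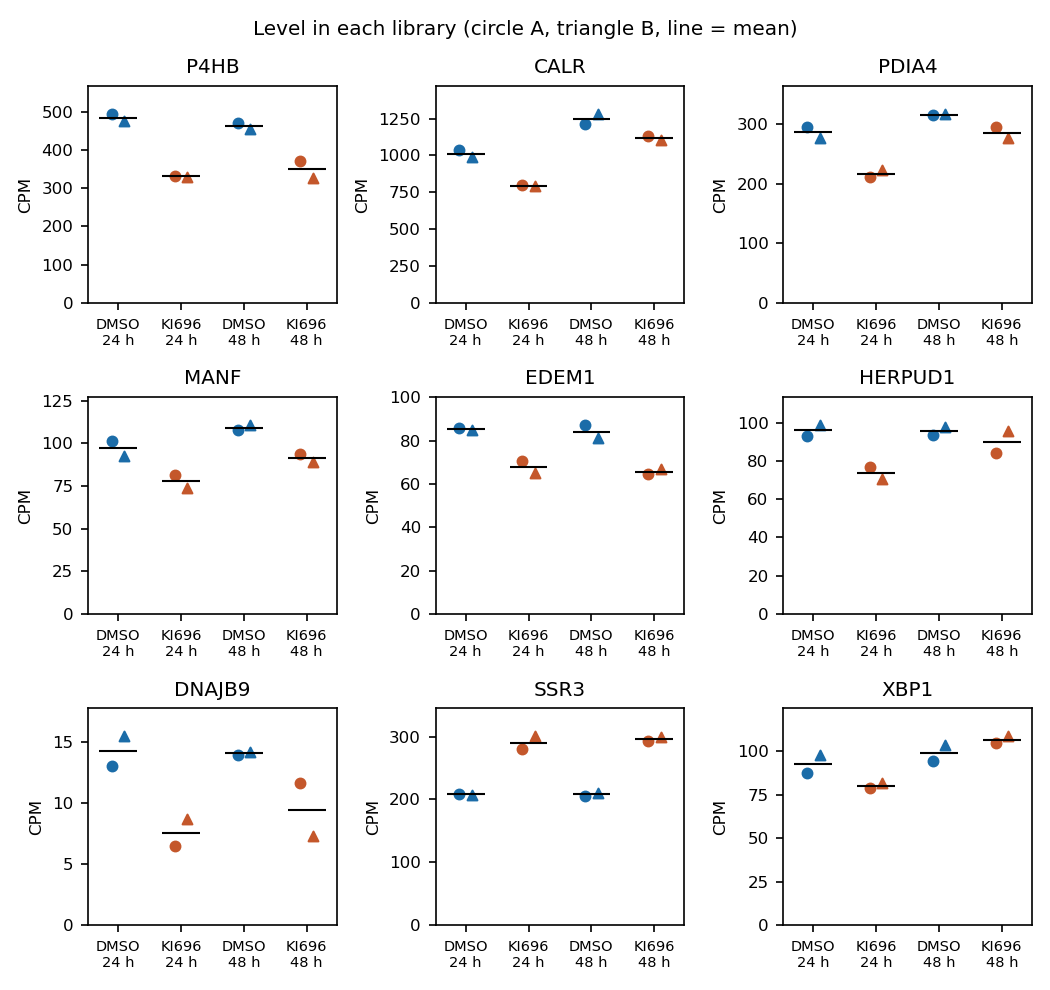
Level in CPM (y axis, from 0) of 9 of the genes in each library, with circles for library A, triangles for library B and a line at the group mean, DMSO in blue and KI696 in orange. P4HB and EDEM1 are lower and SSR3 is higher with KI696 at both times, HERPUD1 is lower at 24 h and overlaps at 48 h, and the treated XBP1 libraries lie below DMSO at 24 h and above it at 48 h.

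XBP1 (chr22:28794555-28800597), the transcription factor that IRE1 activates by splicing its messenger RNA, was lower at 24 h and not called at 48 h. It had 87.7 and 97.8 CPM in DMSO 24 h, 79.0 and 81.5 CPM in KI696 24 h, 94.5 and 104 CPM in DMSO 48 h and 105 and 109 CPM in KI696 48 h. The KI696 libraries were both below the DMSO libraries at 24 h and both above them at 48 h. The differences were −0.21 ± 0.08 (adjusted p = 0.0371) and 0.11 ± 0.08 (adjusted p = 0.264). XBP1 lost its 24 h call with TMM (−0.10) and median-ratio factors (−0.11), without the variance trend (adjusted p = 0.104), with voom weights (adjusted p = 0.0539), with the lineage covariate (−0.28, adjusted p = 0.0606). It was lost too without DMSO 24 h B, KI696 24 h A or KI696 24 h B, where the adjusted p reached 0.296. The summed reads of the gene do not separate its spliced from its unspliced form.

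The degradation genes all fell at 24 h, with a median of −0.32 beside −0.12 for all tested genes. HERPUD1 (chr16:56932048-56944863), a stress-induced membrane protein that organises the degradation complex, had 93.3 and 98.6 CPM in DMSO 24 h, 76.8 and 70.5 CPM in KI696 24 h, 93.8 and 97.5 CPM in DMSO 48 h and 84.4 and 95.6 CPM in KI696 48 h. Its groups were apart at 24 h (−0.38 ± 0.08, adjusted p = 0.00146) and overlapped at 48 h (−0.09 ± 0.08, adjusted p = 0.366). EDEM1 (chr3:5187646-5219957), which trims mannose from glycoproteins destined for degradation, fell at both times, from 85.7 and 84.8 CPM to 70.4 and 65.2 CPM (−0.33 ± 0.07, adjusted p = 0.00245) and from 87.1 and 81.1 CPM to 64.5 and 67.0 CPM (−0.36 ± 0.07, adjusted p = 0.00137). Its groups did not overlap, and both calls were kept in every fit that left out 1 library. SEL1L, the partner of SYVN1, had 113 and 106 CPM in DMSO 24 h, 90.1 and 96.6 CPM in KI696 24 h, 103 and 98.8 CPM in DMSO 48 h and 84.2 and 86.0 CPM in KI696 48 h, without overlap at either time. The differences were −0.23 ± 0.07 (adjusted p = 0.0136) and −0.24 ± 0.07 (adjusted p = 0.00977) on the log2 scale, and both calls were lost with TMM (−0.13 and −0.18). SEL1L lost its 24 h call also with median-ratio factors (−0.13, adjusted p = 0.140), with the lineage covariate (adjusted p = 0.117) and without DMSO 24 h A or KI696 24 h A (adjusted p up to 0.119). Its 48 h call was lost without both libraries A of 48 h (adjusted p = 0.0785). SYVN1 (HRD1), the ubiquitin ligase, fell at 24 h (−0.32 ± 0.09, adjusted p = 0.0124) and missed the threshold at 48 h (−0.22 ± 0.09, adjusted p = 0.0692). SYVN1 lost its 24 h call without DMSO 24 h A, DMSO 24 h B or KI696 24 h B (adjusted p up to 0.0845). That call was also lost with TMM (−0.21, adjusted p = 0.0655), median-ratio factors (−0.22, adjusted p = 0.0589) and the lineage covariate (−0.23, adjusted p = 0.216), and without the variance trend (adjusted p = 0.0544). At 48 h SYVN1 passed without DMSO 48 h A or KI696 48 h A, with values down to −0.33, without both libraries A of 48 h (−0.41, adjusted p = 0.00268) and with voom weights (adjusted p = 0.0379).

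Of the channel's subunits SEC61A1 alone was called with the deposited scaling, at 48 h. SEC61A1 (chr3:128051641-128071683), the pore-forming subunit, had 400.3 and 406 CPM in DMSO 24 h, 421 and 409.8 CPM in KI696 24 h, 412 and 418 CPM in DMSO 48 h and 376 and 374 CPM in KI696 48 h. Its KI696 libraries were the higher pair at 24 h and the lower pair at 48 h. The 24 h difference of 0.04 ± 0.05 did not pass (adjusted p = 0.495), but it did with TMM (0.15, adjusted p = 0.0437) and median-ratio factors (0.14, adjusted p = 0.0319). The 48 h decrease (−0.15 ± 0.05, adjusted p = 0.029) was lost with TMM (−0.08) and median-ratio factors (−0.09), without the variance trend (adjusted p = 0.0978), in the fit of that time alone (adjusted p = 0.0746). It was also lost without both libraries A of 48 h (adjusted p = 0.0506) and without DMSO 48 h B, KI696 48 h A or KI696 48 h B (adjusted p up to 0.103). SEC61B and SEC61G, the small subunits, lay between −0.13 and −0.01 at the 2 times and were not called.

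SSR3 (TRAP gamma, chr3:156540140-156555184), a subunit of the translocon-associated protein complex that assists the entry of some proteins, rose at both times and was the only one of the 36 genes to be called higher under all 4 scalings at both. It had 208.5 and 207 CPM in DMSO 24 h, 280.2 and 301 CPM in KI696 24 h, 206 and 210.3 CPM in DMSO 48 h and 293 and 299 CPM in KI696 48 h. The groups were far apart and the DMSO libraries of both times stood at nearly the same level. SSR3 rose by 39.6% at 24 h (0.48 ± 0.06, adjusted p = 1.87e-05) and by 42.4% at 48 h (0.51 ± 0.06, adjusted p = 8.13e-06), and the values were 0.43 to 0.53 in the fits without 1 library. None of the other 3 subunits of the same complex was called higher with the deposited scaling. SSR2 fell slightly (−0.15 ± 0.06, adjusted p = 0.0471, and −0.18 ± 0.06, adjusted p = 0.02), but its 24 h call was lost in 6 of the 8 fits that left out a library, kept only without DMSO 48 h A or DMSO 48 h B. Its 48 h call was lost without DMSO 48 h A or KI696 48 h B (adjusted p up to 0.0882). SSR2 also lost both calls with TMM (−0.04 and −0.12), median-ratio factors (−0.05 and −0.13) and no variance trend (adjusted p = 0.107 and 0.0658). It lost its 24 h call with the lineage covariate (−0.11) and voom weights, and its 48 h call in the fit of that time alone and without both libraries A of 48 h. SSR1 had 0.11 ± 0.06 and −0.11 ± 0.06 and SSR4 −0.12 ± 0.10 and −0.19 ± 0.10, none of which passed with the deposited scaling. SSR1 was called higher at 24 h with TMM (0.21, adjusted p = 0.0166) and median-ratio factors (0.20, adjusted p = 0.0120). SSR4 passed as lower at 24 h without KI696 24 h A (adjusted p = 0.0442).

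In oligosaccharyltransferase, which transfers the sugar chain to asparagine, RPN1 (ribophorin I, chr3:128619970-128681075) was the subunit that rose. It had 293 and 285 CPM in DMSO 24 h, 314 and 325 CPM in KI696 24 h, 305 and 322 CPM in DMSO 48 h and 360.1 and 369 CPM in KI696 48 h, without overlap at either time. The increases were 0.15 ± 0.05 (adjusted p = 0.0422) and 0.22 ± 0.05 (adjusted p = 0.00484). RPN1 lost its 24 h call with quantile scaling (0.08), with the lineage covariate (0.09, adjusted p = 0.417), without the variance trend (adjusted p = 0.126) and in each of the 4 fits without a 24 h library, where the adjusted p reached 0.204. OSTC, a subunit of the form of the enzyme that works at the channel, fell at 24 h (−0.18 ± 0.07, adjusted p = 0.0426) and was not called at 48 h (−0.14 ± 0.07). Its 24 h call was lost without DMSO 24 h A, DMSO 24 h B or KI696 24 h A (adjusted p up to 0.238). It was also lost with TMM and median-ratio factors (both −0.08), with the lineage covariate (−0.20, adjusted p = 0.174), with voom weights (adjusted p = 0.0524) and without the variance trend (adjusted p = 0.0836). The alternative catalytic subunits STT3A and STT3B had −0.01 ± 0.06 and 0.08 ± 0.06 at 24 h and −0.06 ± 0.06 and −0.02 ± 0.06 at 48 h, and DDOST, RPN2 and DAD1 lay between −0.13 and 0.05 over both times, with no call among these 5 subunits with the deposited scaling. STT3B was called higher at 24 h with TMM (0.19, adjusted p = 0.0417) and median-ratio factors (0.18, adjusted p = 0.0339).

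The change with KI696 was then compared between the times. None of the 36 genes was called for a difference between the 48 h and 24 h effects in limma, against 0.816% of all tested genes. The count of called genes was also 0 with voom weights and with all 3 other scalings. The smallest p values belonged to PDIA4 (0.25 ± 0.08, adjusted p = 0.160), XBP1 (0.31 ± 0.11, adjusted p = 0.166), SEC61A1 (−0.19 ± 0.07, adjusted p = 0.208) and HERPUD1 (0.29 ± 0.11, adjusted p = 0.216). Calls at a single time are therefore not shown to be specific to it. For PDIA4 the 24 h and 48 h values were −0.40 and −0.15 and for HERPUD1 −0.38 and −0.09, so the difference had the sign of a smaller decrease at 48 h without passing the test.

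In the vehicle cultures, 3 of the 36 genes rose between 24 and 48 h and none fell, a share of 8.33% against 9.39% of all tested genes called in either direction. They were PDIA3 (0.32 ± 0.06, adjusted p = 0.00328), CALR (0.30 ± 0.05, adjusted p = 0.00323) and SSR2 (0.25 ± 0.06, adjusted p = 0.0174). The median of the 36 genes in this comparison was 0.10 on the log2 scale, beside −0.01 for all tested genes. CALR, for example, averaged 1012 ± 29.9 CPM (SD over 2 libraries) in DMSO 24 h, 795 ± 2.76 CPM in KI696 24 h, 1246 ± 45.9 CPM in DMSO 48 h and 1117 ± 19.8 CPM in KI696 48 h, so that its 48 h KI696 level was above its 24 h DMSO level. The drift and the KI696 comparisons share the DMSO libraries.

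Other genes of the same pathway, 99 in 7 lists, were all tested, and at 24 h 14 were higher and 34 lower, at 48 h 18 and 32. Beside these counts and those of the lists, 17.7% of all tested genes were higher and 30.3% lower at 24 h, and 21.9% and 25.9% at 48 h. Of 12 sensors and transcription factors of the response, 7 were lower and 1 higher at 24 h. EIF2AK3, which encodes PERK, fell from 25.5 and 26.4 CPM to 15.4 and 16.6 CPM at 24 h (−0.70 ± 0.12, adjusted p = 0.000305) and was lower at 48 h too (−0.44 ± 0.12, adjusted p = 0.00644). The membrane-bound factors CREB3L2 (−0.78 ± 0.10, adjusted p = 5.61e-05), CREB3 (−0.71 ± 0.11, adjusted p = 0.000228) and CREB3L1 (−1.16 ± 0.20, adjusted p = 0.000416) fell at 24 h too. All 4 were also lower at 24 h under the 3 other scalings.

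In the PERK branch 5 of 9 genes were higher and none lower at 48 h, after 2 higher and 1 lower at 24 h. Of all tested genes 21.9% were higher and 25.9% lower at 48 h, and 17.7% and 30.3% at 24 h. The lower one at 24 h was NUPR1, a stress-induced target of ATF4, with 1.67 and 2.46 CPM in DMSO 24 h and 0.242 and 0.384 CPM in KI696 24 h (adjusted p = 0.00405). The KI696 24 h A value was the floor of 0.242 CPM, the value of genes without reads, and that of B lay near it. No fold is therefore given. ATF4, the factor whose translation PERK favours, had 302 and 298 CPM in DMSO 24 h, 328 and 331 CPM in KI696 24 h, 267 and 258 CPM in DMSO 48 h and 406 and 431 CPM in KI696 48 h. Its KI696 libraries were above the DMSO libraries at both times, by 0.14 ± 0.05 (adjusted p = 0.0499) and 0.67 ± 0.05 (adjusted p = 6.16e-07). The difference of effects was 0.53 ± 0.08 (adjusted p = 0.00954). TRIB3, a target of ATF4, rose at 48 h, from 22.9 and 19.4 CPM to 44.4 and 56.4 CPM (1.25, adjusted p = 3.01e-06), and was not called at 24 h (0.22, adjusted p = 0.153), with a difference of effects of 1.03 (adjusted p = 0.0179). These were the 2 genes of the 99 called for that difference, and each was called in 14 of the 20 alternative fits that gave it, with an adjusted p of up to 0.260 in the others. In DMSO both fell between the times, with −0.19 for ATF4 (adjusted p = 0.0446) and −0.92 for TRIB3 (adjusted p = 0.000585). For ATF4 the 24 h call was kept in 13 of 21 alternative fits and its 48 h call in all 21. CEBPB rose at both times (0.43 ± 0.09 and 0.58 ± 0.09). CHAC1 was higher at 48 h (1.16 ± 0.18, adjusted p = 0.000147) and was not called at 24 h (0.22, adjusted p = 0.323). PPP1R15B was likewise higher at 48 h (0.28 ± 0.08, adjusted p = 0.0130) and not called at 24 h (0.17, adjusted p = 0.114). DDIT3 (CHOP), the pro-apoptotic factor of the branch, was not called at either time (−0.09, adjusted p = 0.648, and 0.31, adjusted p = 0.110). PPP1R15A (GADD34), the phosphatase subunit that reverses PERK signalling, was not called with KI696 either (−0.08 and 0.01).

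Among the other degradation factors 3 of 18 were higher and 8 lower at 24 h. This count and those of the lists that follow stand beside 17.7% and 30.3% of all tested genes. The lectin OS9, which delivers glycoproteins to SEL1L, fell from 299 and 290.4 CPM to 197 and 203 CPM (−0.56 ± 0.06, adjusted p = 5.98e-06) and was lower at 48 h too (−0.76 ± 0.06, adjusted p = 3.24e-07). The mannosidase MAN1B1 fell as well (−0.51 ± 0.07, adjusted p = 7.00e-05), while the ubiquitin-conjugating enzyme UBE2G2 (0.40 ± 0.07, adjusted p = 0.000626) and AUP1, which recruits it (0.39 ± 0.07, adjusted p = 0.000530), rose. Of 21 other folding genes 2 were higher and 6 lower at 24 h, led by QSOX1, a sulfhydryl oxidase (−1.12 ± 0.13, adjusted p = 1.28e-05), FKBP2 (−0.60 ± 0.08) and DNAJB2 (−0.66 ± 0.10), with FKBP14 higher (0.52 ± 0.10). Of 17 other translocation and processing genes 4 were higher and 2 lower. The receptor subunit SRPRB (0.50 ± 0.09, adjusted p = 0.000684) and SRP72 (0.26 ± 0.07) of the signal recognition particle rose, and SRP14 (−0.21 ± 0.05) and TRAM1 (−0.24 ± 0.07) fell, the last 2 not with TMM or median-ratio factors. MAGT1, an oxidoreductase subunit of oligosaccharyltransferase, fell at both times (−0.50 ± 0.07 and −0.41 ± 0.07), and with OST4 (−0.37 ± 0.10, adjusted p = 0.00877) made up the 2 of 5 genes of that list that were lower at 24 h. Of 17 genes of retrieval and export 2 were higher and 8 lower at 24 h, with the coat subunit SEC24D at −0.72 ± 0.09 and the cargo receptor LMAN1 at 0.34 ± 0.06.

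Some of the 36 genes share annotated exon positions with a neighbour, such as DNAJB9 with THAP5, SSR4 with IDH3G, SYVN1 with MRPL49, CRELD2 with ALG12, and P4HB and EDEM1 with antisense transcripts. The strand setting of the counting is not given in the sources used here. Reads from the shared positions of such pairs therefore cannot be told apart, while reads from other positions of these genes can.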

How the data were processed

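Poly(A) RNA libraries from Calu-6 cells were read as single 75-base reads on an Illumina NextSeq instrument, per the labels' protocols. Per the submitters' processing notes the genome build was hg38 and R 4.0.3 and edgeR were used, while for the aligner, the read counter and its annotation the entry is: not given in the sources used here. A single table of log2 values was deposited by the authors, taken here as log2 CPM because the values share a floor of −2.05 (0.242 CPM) and step in whole reads on the antilog scale. Reads recovered from these steps lay within 2.4e-09 of whole numbers. Of 14556 rows, 21 whose symbol had become a calendar date were left out. The headers give each column's condition without a replicate number.

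The filter kept genes that reached 1 CPM in 2 or more of the 8 libraries, which left 13473. These were fitted in limma 3.58.1 (R 4.3.3) to the log2 values as deposited, using group means and a trended prior variance. Moderated tests were two-sided, and p-values were adjusted by Benjamini and Hochberg's method across the 13473 genes, with a threshold of 0.05. There were 4 residual degrees of freedom, and 13.2 after moderation. KI696 was compared with DMSO at each time, the 2 effects were compared with each other, and DMSO at 48 h was compared with DMSO at 24 h. The script was tested on simulated data. A gene is called where its adjusted p was below 0.05. Levels are antilogs of the deposited values, so that low levels include the small count added by the authors, and errors of log2 differences are SE.

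The 36 members and the pathway lists were chosen with earlier results of these data known. Values per library are given for HSPA5, HSP90B1, XBP1, HERPUD1, SDF2L1, DNAJB9 and SEL1L and for the 6 genes with the smallest p at each time and the 4 with the smallest p for the difference of effects, with at least 1 per role. Of the other pathway genes, up to 4 per list with the smallest p at 24 h are named. TRIB3, CHAC1, DDIT3 and PPP1R15A were added after their values had been seen. The alternatives were TMM and median-ratio factors from the recovered reads, quantile scaling, log2 of CPM plus 0.25, 1 or 5, no filter, a filter of 5 CPM, no variance trend, a fit of the compared time alone, voom weights, the mean lung lineage level as a covariate, both libraries A of 48 h left out, and each library left out in turn. Gene coordinates and exon lengths are from GENCODE release 29 (GRCh38) and promoter windows from RefSeq (GRCh38.p14).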

Additional observations from a re-analysis of the deposited data

Results flagged for a closer look

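For 4 of the 36 genes both KI696 libraries lay on opposite sides of both DMSO libraries at the 2 times. The share of all tested genes that did so was not computed, so this count has no background to stand beside. The values below are the differences of effects (48 h minus 24 h, log2 scale), tested as an interaction term in limma, and none passed after adjustment over all genes. HSP90B1 was below DMSO at 24 h and above it at 48 h, with 0.138 (adjusted p = 0.409). XBP1 moved the same way, with 0.315 (adjusted p = 0.166). SEC61A1 was above DMSO at 24 h and below it at 48 h, with −0.190 (adjusted p = 0.208), and so was SSR1, with −0.213 (adjusted p = 0.226).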

How the results depend on the processing

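Each of 4 groups held 2 libraries, so single genes near the threshold are the least certain, and of the 18 calls at 24 h and 14 at 48 h 8 and 7 were kept in all 8 fits that left out 1 library. How many of all tested genes kept their calls in these 8 fits was not computed. At 24 h (2 higher, 16 lower as deposited) TMM gave 5 higher and 7 lower and median-ratio factors 6 and 9. No variance trend gave 1 and 9, the lineage covariate 1 and 9, and quantile scaling gave 1 higher. Of all tested genes, 24.3% were higher and 23.2% lower at 24 h with TMM, and 24.5% and 23.8% with median-ratio factors. Without the variance trend the shares were 14.9% and 25.9%, and with the lineage covariate 11.1% and 19.3%. With quantile scaling 22.8% were higher. At 48 h, with 12 lower as deposited, TMM gave 6 lower and no variance trend 5. Of all tested genes 22.1% and 22.9% were lower in these 2 fits. The count of 3 in the DMSO comparison became 6 with quantile scaling or voom weights, 5 with the lineage covariate and 0 without the variance trend. In that order 11.3%, 12.4%, 9.66% and 1.05% of all tested genes were called. The median change was −0.0200 with TMM and −0.0262 with median-ratio factors at 24 h, and −0.0541 and −0.0623 at 48 h. Leaving out 1 library gave 10 to 16 lower and 1 to 2 higher at 24 h, 6 to 12 lower and 2 higher at 48 h, 0 for the difference of effects, 1 to 5 for the DMSO comparison, and medians of −0.156 to −0.0789 and −0.132 to −0.0983. Over the 36 genes, 13 at 24 h and 9 at 48 h changed sign in at least 1 alternative, and 0 of them were called with the deposited scaling. Among the genes given per library these were HSPA5 at 48 h (0.0494 with TMM, 0.0412 with median-ratio factors, and −0.0758 to 0.0528 when 1 library was left out, above 0 without DMSO 48 h B and, at 0.0486, without KI696 48 h A), HSP90B1 at 48 h (−0.120 with quantile scaling), SDF2L1 at 24 h (0.0697 with quantile scaling, and −0.331 to 0.0626 when 1 library was left out, above 0 without KI696 24 h B) and SEC61A1 at 24 h (−0.0266 with quantile scaling). The cause of these changes was not tested. No paired analysis was possible because the column headers carry no replicate number.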
